A study of Homo sapiens with 12 samples.

Results

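Treatment with fulvestrant was followed in PEO1 cells in which p53 had been knocked down, by comparing 3 libraries taken after 48 h with 10 μM fulvestrant with 3 untreated libraries labelled 0 h. These are 6 of the 12 libraries of the series, an RNA sequencing study that asks how mutant p53 bears on estrogen receptor alpha activity and on resistance to endocrine therapy. PEO1 is an established human ovarian cancer cell line. Both groups carried the same short hairpin RNA against p53 (shp53) and grew in RPMI-1640 with serum and puromycin, which keeps cells that hold the hairpin vector. The other 6 libraries come from cells with the pLKO.1 control vector, untreated or given fulvestrant in the same way. They show where the knockdown response differed. They are also part of the same fit, so the tests of the knockdown response draw on their spread too. Per the treatment protocol in the labels, fulvestrant was given together with 100 pM estradiol (E2), while for the untreated cells no source used here says whether they were given estradiol too. The drug, any difference in estradiol and the time in culture therefore cannot be told apart in this comparison. The labels give a single hairpin name and do not say whether the libraries of a group were grown separately. The p-values therefore reflect the spread of the 12 libraries alone, and that spread may be technical.

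Estrogen receptor alpha is a transcription factor that binds estrogen, recruits coactivators and switches on genes for growth and secretion. Fulvestrant binds the receptor in place of estrogen, blocks its activity and leads to its degradation, and is used in endocrine therapy. The protein p53 is a transcription factor that arrests the cell cycle or triggers apoptosis after damage, and mutant forms found in ovarian cancer lose much of that activity.

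CPM, the unit of all levels given here, are counts expressed relative to each library's TMM-adjusted total. The 6 libraries held 21581887 to 27096698 counts, and transcripts of the mitochondrial genome took 0.20% to 0.25% of the counts in untreated and 0.26% to 0.31% in treated libraries. Within each group 1 library stood apart from the others along transcript GC content. Genes with GC-rich transcripts were lower in untreated library 1 and treated library 2 than in the rest of their groups (Spearman correlation of the deviation with GC content −0.53 and −0.67, against 0.20 to 0.58 in the other 4 libraries). Of the ovarian carcinoma markers, PAX8 stood at 69.8 to 107 CPM, while SOX17 was at 0 in all 6 libraries. Of 15 fibroblast markers, COL3A1, LUM, POSTN and DPT were at 0 and the summed level of the list, most of it THY1, was 324 to 346 CPM untreated and 132 to 189 CPM treated. Of 16 leukocyte markers 6 were at 0, among them CD3E, CD3D, MS4A1, FCGR3A and NKG7, with sums of 76.9 to 84.6 and 80.7 to 104 CPM, and of 14 endothelial and mesothelial markers CLDN5 was at 0, with sums of 163 to 211 and 123.1 to 203 CPM.

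Fulvestrant was followed by a broad change. Many estrogen-induced genes, genes of DNA replication and mitosis, sterol synthesis genes and ribosome biogenesis genes were lower after 48 h, and TXNIP, MUC16, FN1 and 21 of 41 interferon-stimulated genes were higher. Of 15715 tested genes 6431 changed (40.9%), 3351 of them higher (21.3%) and 3080 lower (19.6%), by edgeR's quasi-likelihood test with Benjamini-Hochberg adjusted p under 0.05. Most changes were small, with a median absolute log2 fold change of 0.53 among the genes that passed. A change of at least 1 on the log2 scale was reached by 1051 genes (6.69%), 556 higher (3.54%) and 495 lower (3.15%), and a change of at least 2 by 48 higher and 74 lower genes. The median over all tested genes was −0.01, so the shares of higher and lower genes are read against a level close to 0. In such bulk samples fewer cells of one kind, for example fewer cells in S phase, and less RNA per cell cannot be told apart.

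**Figure D1:**
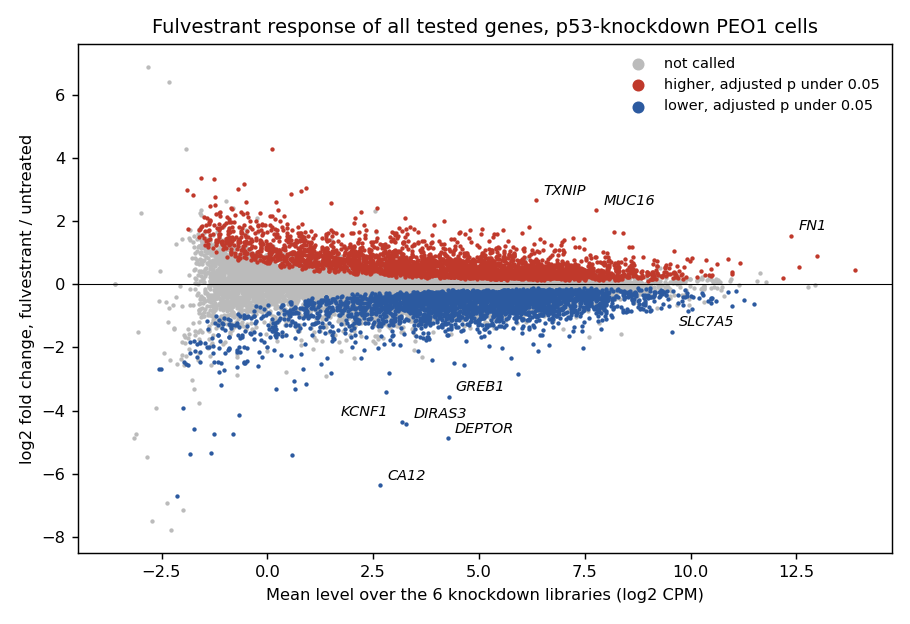
Each point is 1 of the 15715 tested genes, with its mean level over the 6 knockdown libraries (log2 CPM) on the horizontal axis and its log2 fold change with fulvestrant on the vertical axis. The 3351 higher genes are red, the 3080 lower genes blue and the rest grey; TXNIP, MUC16 and FN1 stand above the other genes of their level, and CA12, DEPTOR, DIRAS3, KCNF1, GREB1 and SLC7A5 below.

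The share of genes that passed rose with the level, from 18.0% of 1858 genes with a mean log2 CPM under 0 to 52.5% of 655 genes over 8. Long noncoding genes leaned upwards, mainly because few of them fell. Of 1314 tested, 315 were higher (24.0%, near the 21.3% of all tested genes) and 66 lower (5.02%, against 19.6%). Their median was 0.31 (0.33 after a correction for GC content). Of 13452 protein-coding genes 2888 were higher (21.5%) and 2931 lower (21.8%), with a median of −0.04. Long noncoding genes had a median level of 0.27 log2 CPM, and genes of low level as a whole also leaned upwards. Under a mean log2 CPM of 0, 221 genes were higher and 113 lower, and from 0 to 2, 464 and 225. The response also followed transcript GC content. Across genes its Spearman correlation with GC content was −0.30, given as a description since genes are not independent replicates. With the genes in 5 equal bins, the median of the bin of highest GC content was −0.37, with 4.46% higher and 14.8% lower, and that of the lowest bin was 0.10, with 27.3% higher and 19.3% lower. After the smooth trend of each library on GC content was removed, these medians were 0.03 and 0.05 and 8557 genes passed, 4579 higher and 3978 lower. Each trend was fitted to deviations from the mean of all 12 libraries, treated and untreated together. Medians near 0 therefore follow from the method, and any part of the response itself that follows GC content was removed too. Values after this correction are given for the genes described whose call it changed or whose value it moved by over 1.5 times.

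**Figure D2:**
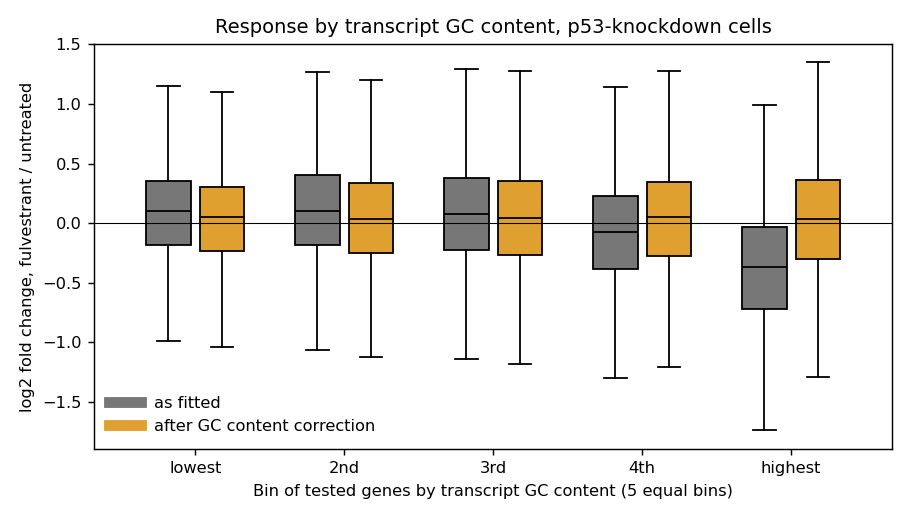
Log2 fold changes with fulvestrant (vertical axis) in 5 bins of the tested genes by transcript GC content (horizontal axis), as fitted (grey) and after the GC content correction (orange). Boxes span the quartiles with a line at the median and whiskers reach the last gene within 1.5 box lengths. The grey median falls to −0.37 in the highest bin. The orange medians lie near 0 in every bin, which follows from how the correction is made.

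The 10 largest falls among well-expressed genes were in genes of varied roles, 3 of them (GREB1, DHRS2 and CISH) on the list of estrogen receptor targets. DEPTOR, which encodes an inhibitor of the mTOR kinase, stood at 106, 102 and 99.3 CPM in untreated libraries 1, 2 and 3 and at 3.54, 3.39 and 3.52 CPM with fulvestrant, which is −4.88 on the log2 scale (SE 0.07, edgeR adjusted p = 1.43e-11). DIRAS3, which encodes an imprinted Ras-related GTPase, fell from 45.1, 45.3 and 41.9 to 2.02, 2.31 and 1.83 CPM (−4.42, adjusted p = 1.62e-08). The untreated and treated libraries were thus far apart, and the 3 libraries of each group lay close together. KCNF1, a potassium channel subunit gene, was more spread, at 35.2, 41.2 and 47.7 CPM before and 2.297, 1.16 and 2.72 CPM after (−4.34, SE 0.44, adjusted p = 4.25e-05). GREB1, a gene induced by the estrogen receptor and itself a cofactor of it, stood at 64.1, 65.4 and 69.05 CPM untreated and 5.696, 5.28 and 5.92 CPM treated (−3.55, SE 0.07, adjusted p = 6.55e-10). The dehydrogenase gene DHRS2 fell from 165, 165 and 158 to 24.6, 19.5 and 24.5 CPM (−2.83). All 10 falls were chosen among genes whose treated and untreated libraries do not overlap, so their separation is not a result. The next 5 falls were those of TNS4, which encodes an adhesion adaptor (−2.54), the cytokine signalling inhibitor gene CISH (−2.49), the neuropeptide gene GAL (−2.38), the MYB-family transcription factor gene MYBL1 (−2.32) and the GTPase regulator gene ARHGAP26 (−2.12), with adjusted p-values of 1.47e-05 or lower.

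The largest rises were smaller than the largest falls. TXNIP, which encodes a brake on glucose uptake and on thioredoxin, rose from 32.8, 34.7 and 29.7 CPM in untreated libraries 1, 2 and 3 to 190.1, 222 and 200.1 CPM with fulvestrant (log2 fold change 2.66, SE 0.10, edgeR adjusted p = 6.12e-08). MUC16, whose product carries the CA125 antigen measured in patients with ovarian cancer, rose from 112, 76.00 and 104 to 457, 506 and 523 CPM (2.34, SE 0.12, adjusted p = 3.84e-07). Relative to their mean, its untreated libraries were more spread than its treated ones. TP53INP1, a stress-induced autophagy gene known as a p53 target, rose from 5.48, 4.24 and 4.09 to 18.4, 20.5 and 20.05 CPM (2.09, adjusted p = 7.63e-07), although p53 had been knocked down in all 6 libraries. BMF, which encodes a pro-apoptotic member of the BCL2 family, rose from 8.52, 9.27 and 8.89 to 38.7, 31.97 and 37.04 CPM (2.01, adjusted p = 5.66e-07). Next came the collagen gene COL8A1 (1.86), the secreted protease inhibitor gene SLPI (1.82), the disulfide isomerase gene AGR2 (1.82), the autophagy gene ATG9B (1.78), SESN3, which encodes a sestrin that restrains mTORC1 (1.76), and the kinase gene DCLK1 (1.75). These 10 genes too were chosen among those whose treated and untreated libraries do not overlap.

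**Figure D3:**
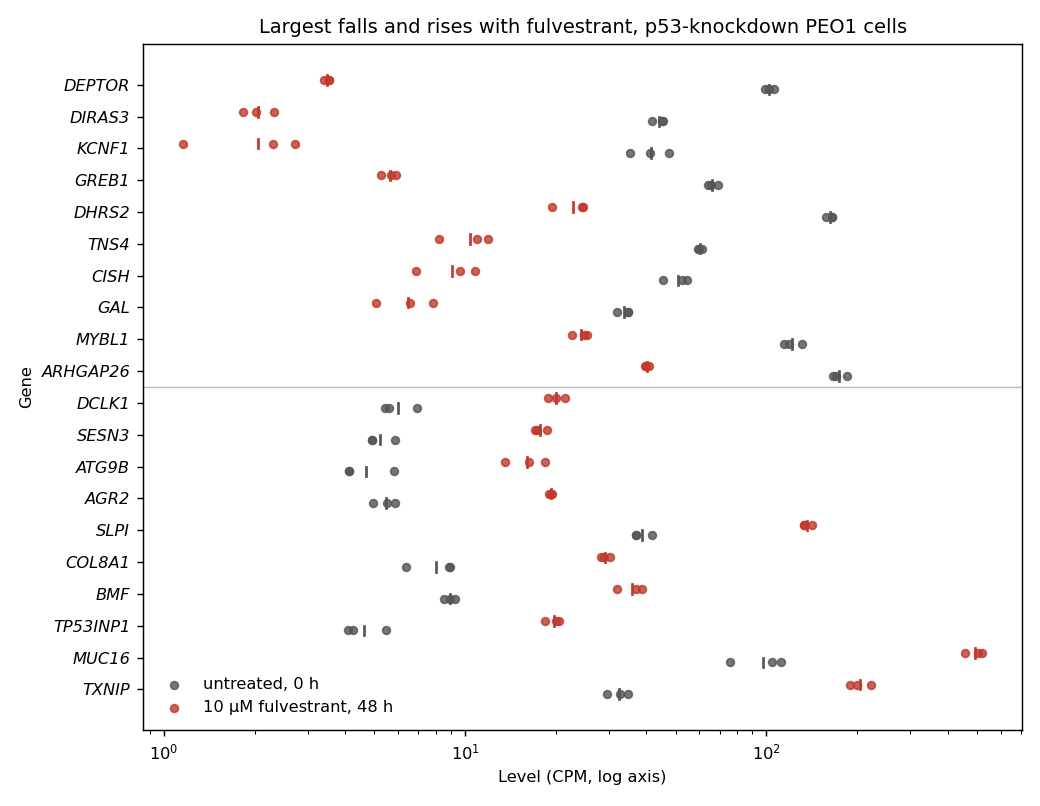
Levels in CPM (horizontal log axis) of the 10 largest falls (upper rows, DEPTOR to ARHGAP26) and the 10 largest rises (lower rows) in untreated libraries (grey) and after 48 h with 10 μM fulvestrant (red), with 1 point for each of the 3 libraries and a short bar at the group mean. All 20 genes were chosen among those whose red and grey points do not overlap.

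Estrogen receptor targets fell more often than genes in general, but not as a block. Of 48 tested targets 26 fell (54.2%), 8 rose and 14 did not pass, with a median of −0.45, against 19.6% lower and 21.3% higher over all tested genes. CA12, a carbonic anhydrase gene that estrogen induces from a distant enhancer, stood at 58.5, 52.7 and 54.1 CPM untreated and at 0.873, 0.655 and 0.469 CPM with fulvestrant (−6.36, edgeR adjusted p = 7.96e-09), the deepest fall of the list. AREG, which encodes the EGFR ligand amphiregulin, fell from 12.3, 12.4 and 11.8 to 2.76, 3.35 and 2.91 CPM (−2.02, adjusted p = 5.56e-07). Other falls were those of MYC, the growth-promoting transcription factor gene (−0.97, adjusted p = 0.000294, and −0.62 after the GC content correction), and RBBP8, a gene of DNA end resection (−1.23, adjusted p = 9.85e-07). The 8 members that rose were BCAS1 (1.86), AGR2 (1.82), FOXC1 (0.91), TPBG (0.57), RERG (0.55), XBP1 (0.43), PRSS23 (0.43) and NRIP1 (0.42), so AGR2 and XBP1, secretory genes often counted among estrogen-induced genes, went against the rest of the list. The cyclin D1 gene CCND1 fell (−0.41, adjusted p = 0.00263), a call that the GC content correction ended (0.14, adjusted p = 0.724). That correction moved the median of the list to −0.15, with 24 lower and 11 higher. The progesterone receptor gene PGR had 0 to 6 counts in each library and TFF1 had 0 in all, so neither of these 2 standard markers of receptor activity could be tested. The full estrogen response element, searched as GGTCA and TGACC with any 3 bases between them, was in 0 of 35 matched promoters of the list (RefSeq, GRCh38.p14, from 250 bases before to 50 bases after the start) and in 0.0659% of all 27305 promoters.

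The mRNA of the receptor itself rose. ESR1 stood at 169, 162 and 161 CPM in untreated libraries 1, 2 and 3 and at 214, 212 and 214 CPM with fulvestrant (0.38, SE 0.05, edgeR adjusted p = 7.55e-05). Its groups did not overlap, as was the case for 9206 of the 15715 tested genes. Among 24 receptors and coregulators 10 rose (41.7%) and 4 fell (16.7%), against 21.3% and 19.6% over all tested genes (list median 0.12). The GC content correction gave a median of 0.15, with 12 members higher and 1 lower. The p160 coactivator genes NCOA1, NCOA2 and NCOA3 all rose, NCOA1 from 36.4, 34.4 and 36.7 to 54.3, 57.9 and 58.4 CPM (0.67, adjusted p = 2.71e-05) and NCOA2 from 97.6, 85.4 and 86.99 to 129, 132 and 129 CPM (0.53, adjusted p = 0.000125). The arginine methyltransferase gene CARM1, another coactivator, fell (−0.71, adjusted p = 0.0146, and −0.38 after the GC content correction). TFAP2C, which encodes a factor that opens chromatin at receptor sites, fell from 133, 132 and 125 to 93.02, 99.00 and 90.8 CPM (−0.46), but its log2 fold change after the GC content correction was −0.0006 (adjusted p = 0.999). Without treated library 2 the count of risers was 6.

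DNA replication genes were lower almost without exception. Of 48 tested, 47 fell and 0 rose, against 19.6% lower over all tested genes, and the exception, the licensing factor gene CDT1, had a log2 fold change of −1.86 (edgeR adjusted p = 0.07). The median of the list was −1.06, about the same after the GC content correction (−1.03), where all 48 were lower, CDT1 among them (−1.26). MCM10, a replication initiation gene, fell from 61.1, 58.2 and 55.7 to 23.2, 23.7 and 22.3 CPM (−1.34, SE 0.08, adjusted p = 6.9e-07). The helicase gene MCM5 fell from 83.2, 90.2 and 100.4 to 40.2, 24.1 and 41.2 CPM (−1.38, adjusted p = 0.0038) and UHRF1, which brings DNA methylation to new strands, from 97.05, 111 and 126 to 42.95, 28.2 and 44.2 CPM (−1.54, adjusted p = 0.000819). In both genes treated library 2 was the lowest of the 6. POLD1, the catalytic subunit gene of polymerase delta, had the largest fall to pass (−1.61, adjusted p = 0.0316, and −1.06 after the GC content correction), a call lost without untreated library 2 (adjusted p = 0.0693) or 3 (0.0889) and without treated library 1 (0.0531) or 2 (0.0953).

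Genes that feed and drive S phase moved with them. Of 30 nucleotide synthesis genes 25 fell (83.3%) and 1 rose (median −0.75), against 19.6% lower over all tested genes. TYMS, which encodes thymidylate synthase, fell from 98.6, 95.5 and 93.9 to 44.6, 43.8 and 46.2 CPM (−1.097, edgeR adjusted p = 3.28e-07) and the thymidine kinase gene TK1 from 246, 314 and 330.2 to 121, 62.6 and 132 CPM (−1.49, adjusted p = 0.0119). The purine enzyme gene PFAS (−1.27) and the dCTP pyrophosphatase gene DCTPP1 (−1.104) also fell. The riser, the p53-inducible ribonucleotide reductase gene RRM2B (0.28), lost its call without untreated library 2 or 3 or treated library 1 or 2. Of 28 G1/S regulators 18 fell (64.3%) and 2 rose (median −0.61). E2F1, the transcription factor gene that drives S phase genes, fell from 67.5, 72.2 and 74.7 to 34.96, 25.5 and 33.99 CPM (−1.18, adjusted p = 0.00043, and −0.74 after the GC content correction), with E2F2 (−1.09), the phosphatase gene CDC25A (−1.31) and MYBL2 (−1.401). The risers were CDKN1B, which encodes the CDK inhibitor p27 (0.304), and RBL2, which encodes the retinoblastoma relative p130 (0.41), both inhibitors of S phase entry. Of 36 genes of homologous recombination and the Fanconi pathway 28 fell (77.8%) and 1 rose (median −0.77). EXO1, a resection exonuclease gene, fell from 69.7, 64.4 and 63.8 to 29.5, 29.7 and 29.8 CPM (−1.15, adjusted p = 7.28e-07) and the helicase gene RAD54L from 49.1, 44.6 and 46.7 to 21.5, 20.2 and 22.6 CPM (−1.13, adjusted p = 7.63e-07). XRCC3 (−1.37), BRCA1 (−0.78) and BRCA2 (−0.73) fell as well. The riser, FANCF (0.22), lost its call without untreated library 2 or 3 and after the GC content correction (adjusted p = 0.136).

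The promoters of the replication list were searched on both strands for E2F-type sites, spelled TTTGGCGC, TTTCCCGC, TTTGCCGC or TTTCGCGC, in RefSeq windows from 250 bases before to 50 bases after the start (GRCh38.p14). Here and for the other lists, the share with a motif is a property of the list and does not depend on the response to fulvestrant. Such a site was in 20 of 42 matched replication promoters (47.6%), in 5.21% of the promoters of all tested genes and in 3.33% of all 27305 promoters. Among all genes that passed, it was in 7.57% of the promoters of lower genes and 3.79% of those of higher genes. All motifs were chosen after the fold changes were seen, matches of different motifs may overlap, and a match describes the sequence and not a bound site. UHRF1 (chr19:4909251-4909550, plus strand) and E2F1 (chr20:33686336-33686635, minus strand) are shown because they carry the site and had log2 fold changes of −1.54 and −1.18. Capitals mark the E2F-type letters, 1 match in UHRF1 and 2 in E2F1.
UHRF1: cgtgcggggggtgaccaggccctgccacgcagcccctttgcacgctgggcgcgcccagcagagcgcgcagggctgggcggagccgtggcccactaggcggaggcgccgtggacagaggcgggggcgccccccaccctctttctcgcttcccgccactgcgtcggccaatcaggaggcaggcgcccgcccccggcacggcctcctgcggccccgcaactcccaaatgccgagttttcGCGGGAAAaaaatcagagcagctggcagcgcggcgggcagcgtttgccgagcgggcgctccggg
E2F1: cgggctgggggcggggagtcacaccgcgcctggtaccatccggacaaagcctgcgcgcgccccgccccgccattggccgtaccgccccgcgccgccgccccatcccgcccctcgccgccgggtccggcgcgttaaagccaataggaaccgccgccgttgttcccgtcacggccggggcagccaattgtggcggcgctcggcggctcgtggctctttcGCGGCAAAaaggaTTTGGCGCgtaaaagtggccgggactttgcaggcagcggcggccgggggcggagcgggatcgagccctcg

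Mitosis genes fell without exception. All 55 tested members passed as lower (median −0.85, −0.90 after the GC content correction), against 19.6% lower over all tested genes. AURKB, the kinase gene of the chromosomal passenger complex, fell from 49.99, 54.1 and 53.1 to 21.9, 18.7 and 23.2 CPM (−1.301, edgeR adjusted p = 1.21e-05) and INCENP, its scaffold, from 68.1, 81.3 and 85.1 to 33.7, 23.1 and 39.2 CPM (−1.29, adjusted p = 0.00669). The centromere gene CENPM (−1.53) and the kinesin gene KIF18B (−1.35) had the largest changes of the list, and BUB3, a checkpoint gene, the smallest (−0.34). MKI67, the proliferation marker Ki-67, fell from 636, 543 and 582 to 349.7, 365 and 334 CPM (−0.75, adjusted p = 3.18e-05). The cyclin gene CCNB2 fell from 81.02, 76.9 and 76.4 to 43.9, 46.2 and 48.5 CPM (−0.76, adjusted p = 1.9e-06). In the genes given with their libraries the groups did not overlap, as in 9206 of all 15715 tested genes.

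The promoters of mitosis genes were searched for the CCAAT box, spelled CCAAT, and a CHR-type element, spelled TTTGAA. On either strand 36 of 47 matched mitosis promoters held CCAAT (76.6%), against 36.3% of the promoters of all tested genes and 35.7% of all promoters. TTTGAA was in 33 of 47 (70.2%), against 9.63% and 15.4%. Among all genes that passed as lower, CCAAT was in 41.4% and TTTGAA in 11.8% of the promoters. Among those that passed as higher the shares were 32.9% and 9.95%. CCNB2 (chr15:59104896-59105195, plus strand) and INCENP (chr11:62123761-62124060, plus strand) are shown because both motifs occur in them. Capitals mark both, with 4 CCAAT boxes in CCNB2, 3 in INCENP and 1 TTTGAA in each.
CCNB2: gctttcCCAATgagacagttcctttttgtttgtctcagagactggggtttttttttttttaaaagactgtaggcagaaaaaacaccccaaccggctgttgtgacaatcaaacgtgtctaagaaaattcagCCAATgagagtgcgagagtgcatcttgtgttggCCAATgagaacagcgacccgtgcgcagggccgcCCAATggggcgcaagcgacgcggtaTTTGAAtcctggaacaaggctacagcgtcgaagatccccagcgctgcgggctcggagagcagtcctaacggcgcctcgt
INCENP: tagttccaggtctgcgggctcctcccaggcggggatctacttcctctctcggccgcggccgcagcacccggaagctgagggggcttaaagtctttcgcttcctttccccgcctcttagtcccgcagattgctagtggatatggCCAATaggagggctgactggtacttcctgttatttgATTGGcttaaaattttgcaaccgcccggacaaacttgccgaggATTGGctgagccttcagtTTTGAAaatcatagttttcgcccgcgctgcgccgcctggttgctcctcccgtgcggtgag

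Replication-dependent histone genes had the lowest median of all lists, −1.22 over 27 tested members. Of these 8 were lower (29.6%) and 1 higher (3.7%), against 19.6% and 21.3% over all tested genes, and 18 did not pass. Their mRNAs lack a poly(A) tail and the libraries were made with an mRNA kit, and their levels here were low. The count of fallen genes was 2 without untreated library 3 or treated library 2 and 4 without treated library 1, and the median was −1.97 without treated library 3. HIST1H2AC rose from 1.16, 1.52 and 1.91 to 5.099, 4.97 and 5.12 CPM (1.73, edgeR adjusted p = 0.000108).

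**Figure D4:**
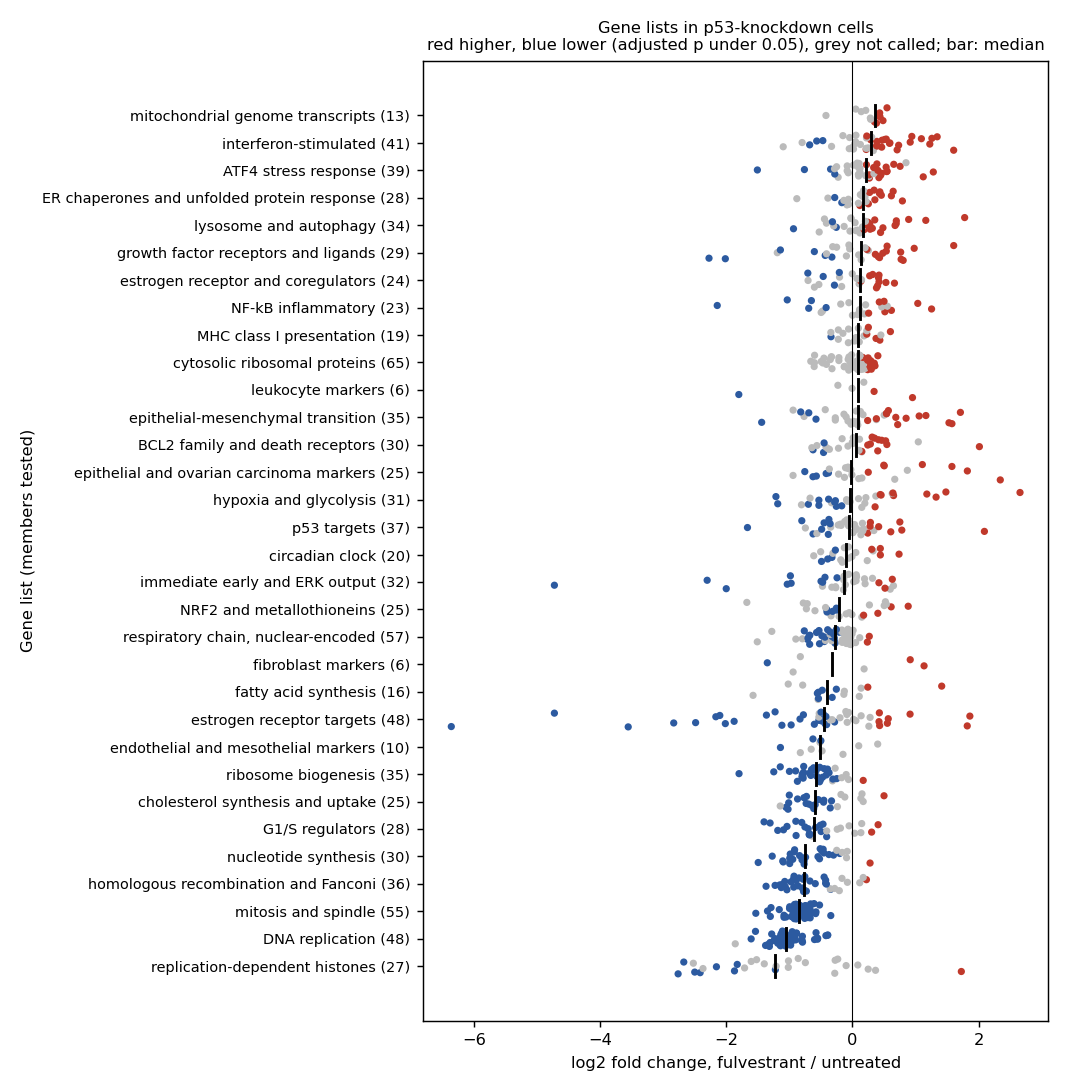
Log2 fold changes with fulvestrant in knockdown cells (horizontal axis) for the tested members of 32 gene lists (rows, number tested in brackets), red where higher and blue where lower at an adjusted p under 0.05 and grey where not; black bars are list medians. The mitosis row is blue throughout and the DNA replication row holds 1 grey point, CDT1, while rows near the middle hold red, blue and grey points.

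Genes that build ribosomes fell, while no ribosomal protein gene passed as lower. Of 35 ribosome biogenesis genes 29 fell and 1 rose (median −0.57), against 19.6% lower over all tested genes. RRS1, an assembly factor gene of the large subunit, fell from 33.6, 30.7 and 32.96 to 14.1, 14.7 and 15.3 CPM (−1.14, SE 0.09, edgeR adjusted p = 4.91e-06), and the processing factor genes RRP9 (−1.25) and RRP12 (−0.999) fell too. BOP1 stood at 39.1, 52.7 and 59.3 CPM untreated and 17.2, 7.09 and 19.3 CPM treated (−1.798, adjusted p = 0.0252), a call lost without untreated library 2 (adjusted p = 0.0595) or 3 (0.0691) or treated library 2 (0.0762). The riser, the polymerase subunit gene POLR1D (0.17), lost its call without untreated library 1 or 3 or treated library 1 or 2 and after the GC content correction (0.11, adjusted p = 0.208). The E-box CACGTG, the letters bound by MYC and related factors, was in 10 of 28 matched promoters of this list (35.7%), 9.98% of those of all tested genes and 7.43% of all promoters. Among all genes that passed, it was in 12.2% of the promoters of lower genes and 9.02% of those of higher genes. Of 65 cytosolic ribosomal protein genes 14 rose and 0 fell (21.5% higher, near the 21.3% of all tested genes), with a median of 0.09. These genes have many near-identical copies, between which the counting can split reads, so their values are uncertain. RPS27 stood at 470.2, 438 and 411 CPM untreated and 568, 611 and 565 CPM treated (0.403, adjusted p = 0.00145). The 14 risers became 7 and 6 without untreated library 2 or 3 and 6 and 2 without treated library 1 or 2, and without the 4 libraries farthest to low GC content 9 members were lower.

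Of 57 nuclear-encoded respiratory chain genes 24 fell (42.1%) and 2 rose (3.5%), against 19.6% and 21.3% over all tested genes (list median −0.28). ATP5G1, which encodes the membrane ring subunit of ATP synthase, fell from 68.3, 69.2 and 61.4 to 38.5, 40.4 and 38.2 CPM (−0.76, edgeR adjusted p = 4.59e-05), and the succinate dehydrogenase gene SDHA from 293, 309 and 303 to 201, 155 and 199.9 CPM (−0.705, adjusted p = 0.000739). After the GC content correction 37 were lower and 1 higher, and 1 rather than 2 rose without any one of untreated libraries 2 and 3 or of the 3 treated libraries. Transcripts of the mitochondrial genome went the other way, with 7 of 13 higher and 0 lower (median 0.35). MT-CYB, the cytochrome b gene, stood at 132, 104 and 120.2 CPM untreated and 186, 177 and 158 CPM treated (0.55, adjusted p = 0.00251). The 7 risers became 4 without untreated library 2 or 3 or treated library 2, and the part of RNA quality in this rise was not tested.

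Sterol synthesis genes fell as a group. Of 25 genes of cholesterol synthesis and uptake 17 fell and 1 rose (median −0.59), against 19.6% lower over all tested genes, and 3 rose after the GC content correction. ACAT2, which makes acetoacetyl-CoA, fell from 87.8, 86.1 and 80.4 to 42.6, 43.99 and 38.7 CPM (−1.02, SE 0.09, edgeR adjusted p = 6.99e-06). MVK, the mevalonate kinase gene (−1.05), and LSS, the lanosterol synthase gene (−1.01), fell as well. The riser was INSIG2, which encodes a protein that holds back sterol synthesis (0.501). CCAAT was in 15 of 19 matched promoters of this list (78.9%, against 36.3% of those of all tested genes). The sterol response element, searched as TCAC and CCAC with any base between them, was in 1 of the 19 (5.26%, against 1.07%). CCAAT was also in 22 of 27 matched promoters (81.5%) of the endoplasmic reticulum chaperone list, where 12 genes rose and 2 fell. Fatty acid synthesis was less uniform, with 6 of 16 lower (37.5%) and 2 higher (median −0.40), and 9 lower and 4 higher after the GC content correction. The citrate lyase gene ACLY fell from 589, 595 and 571 to 408, 369 and 430.2 CPM (−0.54, adjusted p = 0.000126) with the elongase genes ELOVL5 (−0.56) and ELOVL6 (−0.54). FASN, the fatty acid synthase gene, had a log2 fold change of −1.58 with adjusted p = 0.0999, and passed as lower after the GC content correction (−1.04, adjusted p = 0.0253). FADS2 (−0.48) lost its call without untreated library 1 or 2 or treated library 2 (adjusted p = 0.0562, 0.0871 and 0.0546), and 1 member rather than 2 rose without untreated library 1 or 3 or treated library 1 or 2. The risers were the lipogenic gene THRSP (1.41) and the acetyl-CoA synthetase gene ACSS2 (0.24).

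Stress genes downstream of ATF4 rose more often than they fell. Of 39, 16 rose (41.0%) and 4 fell (10.3%), against 21.3% and 19.6% over all tested genes (list median 0.21), and 26 rose and 5 fell with a median of 0.38 after the GC content correction. DDIT3, which encodes the stress factor CHOP, rose from 13.8, 12.3 and 11.2 to 24.4, 28.5 and 28.2 CPM (1.12, edgeR adjusted p = 2.9e-05) and NUPR1, another stress factor gene, from 9.57, 13.2 and 12.3 to 33.1, 18.8 and 33.4 CPM (1.28, adjusted p = 0.0117). The amino acid transporter gene SLC7A5 fell from 1087, 1341 and 1439 to 509, 315 and 536 CPM (−1.51, adjusted p = 0.00445), and SLC3A2, which encodes the partner chain of the same transporter, from 314, 332 and 322 to 186, 183 and 202 CPM (−0.76, adjusted p = 0.000126). The other members that fell were SLC7A1 (−0.35, and −0.19 after the GC content correction) and PSPH, and the count of fallen genes was 2 without untreated library 3. Of 28 endoplasmic reticulum chaperone and unfolded protein response genes 12 rose (42.9%) and 2 fell (median 0.17), with 5 lower after the GC content correction. CREB3L2, a membrane-bound transcription factor gene, rose from 107, 109.9 and 103 to 168, 163 and 168 CPM (0.65, adjusted p = 1.02e-06), with the co-chaperone gene DNAJB9 (0.79), HERPUD1 (0.62) and SEL1L (0.46), which act in the disposal of misfolded proteins. The 2 that fell were MANF and PDIA4, with 1 left without untreated library 1 or 2.

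Interferon-stimulated genes rose more often than genes in general. Of 41 tested, 21 rose (51.2%) and 3 fell (median 0.29), against 21.3% higher over all tested genes. IFIT2, an antiviral gene that blocks translation of foreign RNA, rose from 14.9, 15.4 and 13.3 to 43.00, 49.1 and 40.6 CPM (1.605, SE 0.11, edgeR adjusted p = 1.72e-06). RSAD2, which encodes viperin, rose from 6.75, 5.85 and 6.07 to 14.7, 14.7 and 14.4 CPM (1.23, adjusted p = 2e-06) and the growth-restricting gene SAMD9L from 25.2, 24.9 and 22.7 to 50.8, 55.6 and 48.8 CPM (1.09, adjusted p = 4.43e-06). The antiviral ligase gene TRIM22 also rose (1.34). Of the factor that transmits the interferon signal, IRF9 (0.92) and STAT2 (0.59) rose. ISG15 and IRF7, often read as markers of this response, had log2 fold changes of −1.098 and −0.798 (adjusted p = 0.402 and 0.38), and the 3 members that fell were OAS3, USP18 and HERC5. The interferon response element, searched as GAAA and GAAA with any 2 bases between them, was in 20 of 34 matched promoters of this list (58.8%), in 2.84% of those of all tested genes and in 3.65% of all promoters. Among all genes that passed, it was in 3.46% of the promoters of higher genes and 2.62% of those of lower genes. The IFIT3 promoter (chr10:89327747-89328046, plus strand) is shown because 2 such matches, in capitals, lie in it. IFIT3 rose from 17.9, 15.6 and 16.2 to 26.1, 28.8 and 26.5 CPM (0.71, adjusted p = 0.000124).
IFIT3: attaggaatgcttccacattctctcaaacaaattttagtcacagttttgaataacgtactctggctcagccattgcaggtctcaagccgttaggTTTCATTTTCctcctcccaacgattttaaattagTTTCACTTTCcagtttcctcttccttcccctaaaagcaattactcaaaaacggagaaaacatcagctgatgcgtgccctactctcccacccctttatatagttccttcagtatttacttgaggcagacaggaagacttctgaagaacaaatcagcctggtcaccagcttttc

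Inflammatory genes driven by NF-kB had no common direction, with 7 of 23 higher (30.4%) and 5 lower (21.7%), against 21.3% and 19.6% over all tested genes (list median 0.11, 0.37 after the GC content correction and 0.20 without treated library 2). IL6, a cytokine gene, rose from 4.58, 4.46 and 3.49 to 9.32, 10.2 and 10.4 CPM (1.25, edgeR adjusted p = 7.97e-06) and PTGS2, which encodes the prostaglandin enzyme COX-2, from 2.06, 3.12 and 2.14 to 4.36, 5.32 and 5.31 CPM (1.04, adjusted p = 0.00389). IL8, a neutrophil chemokine gene, fell from 68.6, 64.4 and 58.6 to 38.6, 42.95 and 36.9 CPM (−0.69, adjusted p = 0.000743), and IER3 fell too (−1.03). Of 19 genes of MHC class I presentation 5 rose and 1 fell (median 0.09), which is 26.3% and 5.3% against 21.3% and 19.6% over all tested genes, and 11 rose after the GC content correction. The peptide-trimming gene ERAP1 rose (0.602, adjusted p = 2.77e-05), as did B2M, the light chain of class I molecules (0.37, adjusted p = 0.00329), and the peptide transporter gene TAP2 fell (−0.34, adjusted p = 0.00147, and −0.202 after the GC content correction). The 5 risers became 3 without untreated library 3 or treated library 1 or 3.

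The p53 targets moved in both directions in these knockdown cells. Of 37 tested, 8 rose and 8 fell (21.6% each, near the 21.3% and 19.6% over all tested genes), with a median of −0.06, and the GC content correction gave 11 higher and 13 lower. AEN, which encodes an apoptosis-enhancing nuclease, fell from 21.3, 20.9 and 22.9 to 6.52, 5.82 and 8.22 CPM (−1.66, edgeR adjusted p = 3.03e-05), and MDM2, which encodes the ubiquitin ligase of p53, from 86.4, 82.2 and 78.7 to 60.2, 66.7 and 62.8 CPM (−0.38, adjusted p = 0.00133). ZMAT3, an RNA-binding protein gene, rose from 12.3, 11.8 and 10.8 to 20.6, 19.7 and 19.7 CPM (0.78, adjusted p = 1.05e-05), beside TP53INP1 above. CDKN1A, which encodes the CDK inhibitor p21, stood at 5.67, 6.24 and 7.07 CPM untreated and 7.26, 6.202 and 7.37 CPM treated, and its groups overlapped (0.13, adjusted p = 0.421). After the GC content correction it passed as higher (0.49, adjusted p = 0.0257). The count of risers was 5 without treated library 2, and the median was −0.11 without that library, −0.02 without untreated library 1 and 0.02 without treated library 3.

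Among 30 genes of the BCL2 family and death receptors 11 rose (36.7%) and 3 fell (10.0%), against 21.3% and 19.6% over all tested genes (list median 0.06). Beside BMF, the neuronal BH3-only gene HRK rose (0.55, edgeR adjusted p = 0.000917), and so did the survival genes CFLAR, from 83.4, 77.2 and 76.9 to 109, 117 and 115 CPM (0.53, adjusted p = 2.45e-05), XIAP (0.46) and MCL1 (0.401). Genes for and against cell death were thus both among the risers. BCL2, an estrogen-induced survival gene, fell (−0.46, adjusted p = 0.00629), as did TNFRSF10A and BAX. BAX (−0.62, adjusted p = 0.0416) lost its call without any of the 3 untreated libraries or without treated library 1 or 2 (adjusted p between 0.0563 and 0.117), and the GC content correction moved it to −0.299. The count of risers was 7 without treated library 2, and without it the median was 0.01.

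Of 29 growth factor receptors and ligands 12 rose (41.4%) and 6 fell (20.7%, near the 19.6% of all tested genes, of which 21.3% rose), with a median of 0.14, and 0.08 without treated library 1. EGFR rose from 751, 704 and 730.3 to 1265, 1289.8 and 1262 CPM (0.804, edgeR adjusted p = 4.76e-07) and its relative ERBB3 from 214, 207 and 198 to 356, 354 and 347 CPM (0.77, adjusted p = 6.42e-07), while the EGFR ligand genes AREG and EREG (−2.27) fell. FGF5, a fibroblast growth factor gene, rose from 18.6, 16.98 and 18.1 to 36.8, 34.02 and 34.9 CPM (0.98, adjusted p = 9.65e-07). Other ligand genes of EGFR, HBEGF (0.43) and BTC (0.41), rose, and the receptor genes FGFR1 (−1.14) and IGF1R (−0.43) fell, so neither ligands nor receptors moved one way. Of 32 immediate early and ERK output genes 10 fell (31.2%) and 3 rose (median −0.14, −0.0023 after the GC content correction). FOSL1, an AP-1 subunit gene, fell from 86.7, 95.8 and 96.8 to 23.98, 18.8 and 27.1 CPM (−2.001, adjusted p = 2.57e-05), and the ETS factor gene ETV4 fell as well (−0.98). EGR1 and FOS, the usual first responders, had log2 fold changes of −0.48 and −0.14 and did not pass, although EGR1 did as lower after the GC content correction (−0.36, adjusted p = 0.049).

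Several matrix and adhesion genes rose. Of 35 genes of the epithelial-mesenchymal transition list 13 rose (37.1%) and 4 fell (11.4%), against 21.3% and 19.6% over all tested genes (list median 0.08, 0.16 after the GC content correction). FN1, which encodes fibronectin, rose from 3293, 3011 and 3058 to 8902, 9355 and 8785 CPM (1.53, SE 0.05, edgeR adjusted p = 5.12e-08), CTGF, a matricellular growth factor gene, from 16.4, 16.2 and 13.4 to 49.8, 48.8 and 52.2 CPM (1.71, adjusted p = 2.39e-07), and the cadherin gene CDH6 from 25.03, 24.9 and 24.02 to 74.6, 72.8 and 73.4 CPM (1.58, adjusted p = 6.12e-08). TGFBI, which encodes a matrix protein induced by TGF-beta, rose from 269, 274 and 247 to 581, 601 and 589 CPM (1.16). SNAI1, a repressor that drives the transition, fell (−1.44, adjusted p = 0.00476), the epithelial splicing gene ESRP1 rose (0.24), and E-cadherin (CDH1) and vimentin (VIM) had log2 fold changes of 0.08 and 0.03 and did not pass. Both mesenchymal and epithelial members were thus among the risers. Without the 4 libraries farthest to low GC content 9 members were lower, and without treated library 3 the median was 0.13. Of 25 ovarian carcinoma markers 7 rose and 5 fell (median −0.03, 0.18 after the GC content correction and 0.13 without treated library 2). VTCN1, the checkpoint ligand B7-H4, rose from 29.7, 27.2 and 28.9 to 59.2, 65.6 and 60.05 CPM (1.11, adjusted p = 1.04e-06) with MUC16 and SLPI, whereas WT1, a transcription factor gene of serous carcinoma, fell from 16.2, 15.1 and 15.4 to 9.095, 10.3 and 10.8 CPM (−0.63, adjusted p = 0.000195).

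THY1, a surface glycoprotein gene that fibroblasts express, fell from 245, 247 and 241 to 103, 80.7 and 104 CPM (−1.35, edgeR adjusted p = 3.34e-06), while the other fibroblast genes that passed, FAP (1.14) and ACTA2 (0.92), rose. Among mesothelial markers CALB2, which encodes calretinin, fell from 24.96, 26.8 and 25.7 to 11.6, 10.7 and 12.7 CPM (−1.14, adjusted p = 1.09e-06), and of leukocyte markers CD14 fell (−1.802) and CD8A rose (0.95) at levels of 0.886 to 6.35 CPM. The part of other cell types in these changes was not tested beyond the markers at 0 listed above.

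Metabolic genes around TXNIP changed without a common direction. Of 31 hypoxia and glycolysis genes 9 rose and 10 fell (32.3%, against 19.6% of all tested genes), and 14 rose after the GC content correction (median −0.04, 0.05 after the GC content correction and 0.02 without treated library 2). ARRDC4, the closest relative of TXNIP, rose from 4.47, 5.15 and 3.69 to 12.2, 13.3 and 11.7 CPM (1.48, edgeR adjusted p = 1.7e-05) and PDK4, which encodes a pyruvate dehydrogenase kinase, from 5.55, 6.41 and 5.32 to 14.1, 16.4 and 12.8 CPM (1.33, adjusted p = 1.07e-05). The hypoxia-induced carbonic anhydrase gene CA9 fell (−1.21, adjusted p = 0.00518), and the glycolytic enzyme genes ENO1, GPI, PKM, TPI1 and PGAM1 fell by 0.27 to 0.53. After the GC content correction GPI (−0.26, adjusted p = 0.0717) and TPI1 (−0.14, adjusted p = 0.0558) no longer passed and PKM was at −0.22. Of 34 lysosome and autophagy genes 16 rose (47.1%) and 3 fell (median 0.17), against 21.3% higher over all tested genes. GABARAPL1, which encodes an autophagosome membrane protein, rose from 31.2, 30.5 and 27.1 to 64.5, 70.8 and 63.5 CPM (1.16, adjusted p = 9e-07) and WIPI1 from 24.8, 25.2 and 23.8 to 44.9, 46.3 and 45.7 CPM (0.89, adjusted p = 7.97e-06), while the alpha-galactosidase gene GLA fell (−0.93). The E-box CACGTG was in 7 of 24 matched promoters of this list (29.2%), against 9.98% of those of all tested genes and 9.02% of those of all higher genes.

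Iron storage genes rose. Of 25 NRF2 target and metallothionein genes 4 rose and 5 fell (median −0.21), about the shares over all tested genes, and the GC content correction gave 4 higher and 9 lower members (median −0.07). FTH1, the ferritin heavy chain gene, rose from 6149, 5974 and 5669 to 10772, 11213 and 10846 CPM (0.88, SE 0.05, edgeR adjusted p = 7.95e-07) and the light chain gene FTL from 341, 331 and 305 to 537, 436 and 523 CPM (0.61, adjusted p = 0.00103), while the thioredoxin gene TXN fell (−0.403, adjusted p = 0.00508). The list's counts moved with single libraries, to 3 lower without untreated library 1 or 2 and to 2 higher without treated library 2, where the median was −0.12. Ferritin genes also have many processed copies, so their counts are uncertain. Of 20 clock genes 4 rose and 4 fell, near the shares over all tested genes (list median −0.10). The GC content correction gave 7 higher and 6 lower members and a median of 0.19. The nuclear receptor gene RORA rose (0.74, adjusted p = 0.000144) and the core clock gene ARNTL fell (−0.49, adjusted p = 0.00373), with 2 fallen members without untreated library 1 or 2 or treated library 1 and a median of −0.02 without treated library 2.

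The response in control-vector cells, measured in the other 6 libraries, gives the reference for what differed with knockdown. There 4363 genes passed (27.8%), 2112 higher (13.4%) and 2251 lower (14.3%). Both lines shared 3983 genes, of which 3981 changed in the same direction, and 2448 genes passed with knockdown but not with the control vector and 380 the reverse, which does not show a difference between the lines. Across tested genes the log2 fold changes of the 2 responses, which share no library, correlated with a Pearson r of 0.76 and a Spearman correlation of 0.82, given as a description across genes. The difference itself was tested for every gene in the same model, and 4 of 15715 passed (0.0255%), with 1171 genes (7.45%) at an unadjusted p under 0.05 by edgeR.

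SH3KBP1, which encodes an adaptor in receptor endocytosis, stood at 97.8, 100.4 and 93.2 CPM untreated and 52.2, 54.2 and 53.8 CPM treated with knockdown, a log2 fold change of −0.86 against −0.27 with the control vector (difference −0.596, edgeR adjusted p = 0.0265). CYP24A1, which encodes the enzyme that inactivates vitamin D, rose from 40.7, 40.1 and 41.4 to 77.8, 80.3 and 79.4 CPM with knockdown (0.96), while control-vector cells had means of 50.4 and 56.4 CPM (0.16; difference 0.796, adjusted p = 0.0277). The 3 treated knockdown libraries lay above the 3 untreated ones, and 9206 of the 15715 tested genes had no overlap between these groups. The change of CYP24A1 in control-vector cells did not pass (edgeR adjusted p = 0.087). CDH6 rose more with knockdown, by 1.58 against 0.96 (difference 0.62, adjusted p = 0.0478). GREB1 fell more, −3.55 against −2.804 (difference −0.75, adjusted p = 0.0478), from a higher untreated mean of 66.2 CPM against 41.2 CPM to treated means of 5.63 and 5.89 CPM. These calls rest on all libraries together: that of GREB1 was lost without any one of the 12 libraries (adjusted p between 0.0525 and 0.266), those of CYP24A1 and CDH6 without each of 11, all but treated control-vector library 3, and that of SH3KBP1 without each of 10. Leaving out 1 library at a time, 7 genes passed without treated control-vector library 3, 1 without untreated knockdown library 3 and 0 without any of the others, and 47 passed by DESeq2.

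The lists of the cell cycle had lower medians with knockdown than with the control vector, a difference that was not tested for any list as a whole. The median of the 48 DNA replication genes was −1.06 against −0.63 in control-vector cells, where 44 fell. None of their differences passed over all tested genes. At an unadjusted p under 0.05 by edgeR, 33 of the 48 were lower with knockdown, against 7.45% of all tested genes in either direction. Lower by this measure were also 19 of 36 recombination and Fanconi, 18 of 55 mitosis, 7 of 30 nucleotide synthesis and 8 of 39 ATF4 genes. Higher were 9 of 41 interferon and 1 of 25 sterol genes. After the GC content correction 33 replication genes passed, of 601 genes in all. MCM10 had −1.34 against −0.85 (difference −0.49, edgeR adjusted p = 0.208) and GINS4, a subunit gene of the replicative helicase, −1.24 against −0.67 (−0.57, adjusted p = 0.0932). The median of 36 recombination and Fanconi genes was −0.77 against −0.45, that of 55 mitosis genes −0.85 against −0.62 and that of 30 nucleotide synthesis genes −0.75 against −0.48. The sterol synthesis medians were −0.59 and −0.61. The ATF4 list had a lower median with knockdown, 0.21 against 0.47, and the interferon list a higher one, 0.29 against 0.05, and no member of either passed the test of the difference as fitted, while 12 ATF4 and 5 interferon members did after the GC content correction. Next in order of p after the 4 genes that passed were, among others, the matrix gene TGFBI (0.46, adjusted p = 0.0932), the solute carrier gene SLC43A3 (−0.54, 0.0932) and the pseudogene CD24P4 (0.501, 0.108), whose counts can include reads of CD24 or its other copies.

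**Figure D5:**
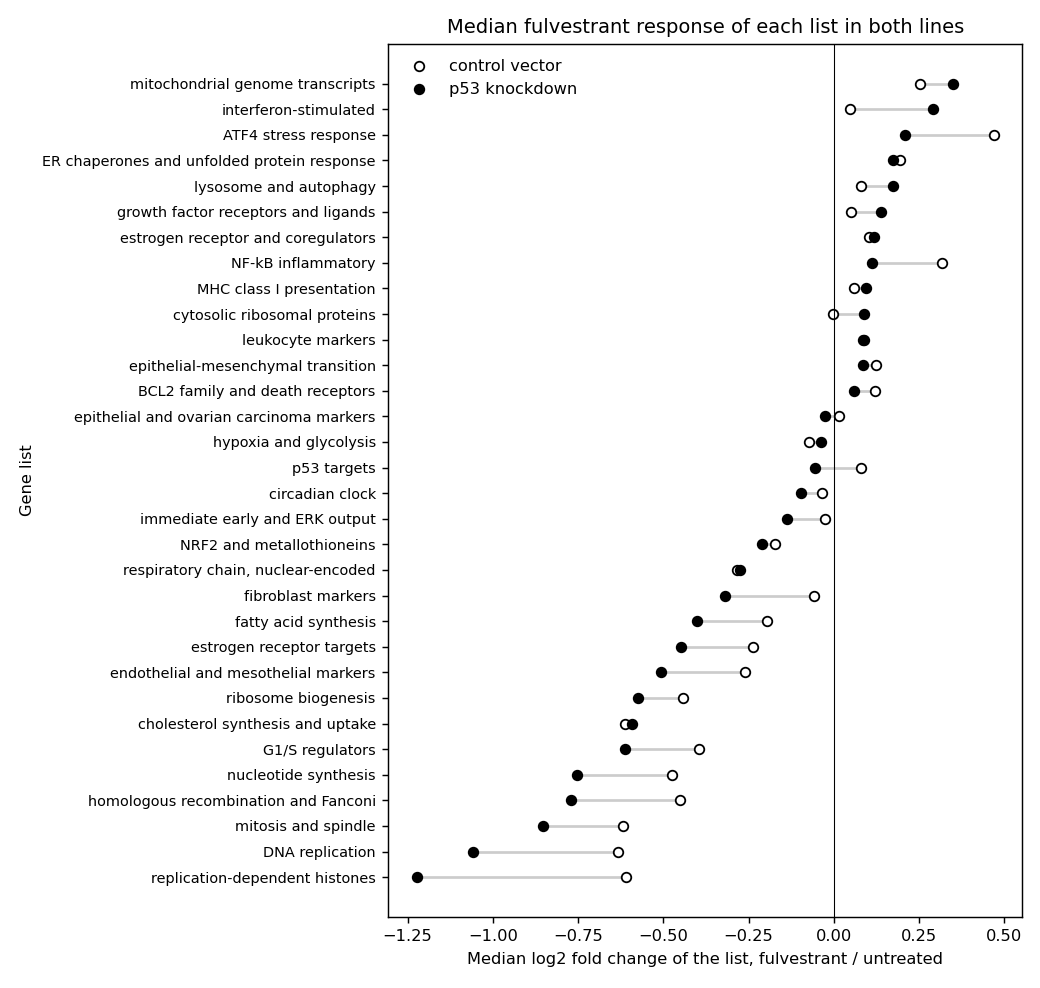
Median log2 fold change with fulvestrant (horizontal axis) of each gene list (rows) in p53-knockdown cells (filled points) and control-vector cells (open points), joined by a grey line. The DNA replication median is −1.06 with knockdown and −0.63 with the control vector, and the sterol medians of −0.59 and −0.61 nearly coincide; differences between medians were not tested.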

How the data were processed

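RNA was sequenced from 12 PEO1 libraries, 3 in each of 4 groups, after a stranded mRNA library preparation, per the labels' protocols. Per the submitters' processing notes, cutadapt, Bowtie2, RSEM 1.3.3 and MultiQC were used with GRCh37/hg19; the annotation release and the use of strand in counting are not given in the sources used. The deposited table holds the authors' RSEM estimated counts, as whole numbers, for 57773 entries, 30146 of them at 0 in all 12 libraries; 6 further columns of the table match no sample described here and were not used.

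Counts of all 12 libraries were fitted with edgeR 4.0.16 (R 4.3.3): TMM normalization, filterByExpr (15715 genes kept), 1 mean per group, the robust quasi-likelihood test and Benjamini-Hochberg adjustment over all tested genes at 0.05. Standard errors were approximated from the fold change and its F statistic. All pairs of replicates differed by more than sampling noise. The difference between knockdown and control responses was a contrast of the same fit. Alternatives were RLE size factors, DESeq2 1.42.0, no filter, a filter of 1 CPM in 3 libraries, a replicate block, removal of each library's smooth trend on transcript GC content (mgcv 1.9.3; GC content was known for 97.8% of tested genes, matched by transcript ID), a fit of only the 6 knockdown libraries, each library left out, and, chosen after seeing the data, leaving out the 4 libraries farthest to low GC content (1 per group). The procedure was tested on simulated data. RefSeq promoters were matched by symbol to 11396 tested genes. Gene positions other than these promoters are not printed because no annotation of the counts' build was used.

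The comparison and the 32 gene lists were chosen with earlier results of these data known, so a list's counts are a description. Genes are named by this rule, apart from a few that are not reported here: ESR1, PGR, GREB1, CDKN1A and MDM2; the 10 largest rises and falls among genes that passed without overlap and averaged 3 or more in log2 CPM; up to 4 members of each list with the largest changes among those that passed and averaged 1 or more; and 4 genes per direction of smallest p for the difference. Other genes, among them BCAS1, CCNB2, MKI67, BRCA1, BRCA2, CDT1, FASN, STAT2, IRF9, ISG15, IRF7, IFIT3, BCL2, XIAP, MCL1, EGR1, FOS, CDH1, VIM, ESRP1, EREG, the glycolytic enzyme genes, the members that went against their list and the genes of the closing section, were chosen after their values were seen.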

Additional observations from a re-analysis of the deposited data

Results flagged for a closer look

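Of the 15715 genes, 4 had a fulvestrant response in knockdown cells that differed from the response in control-vector cells by the test of the difference itself (edgeR's quasi-likelihood test, adjusted over all tested genes). SH3KBP1 fell further with knockdown, by a difference of −0.596 on the log2 scale (adjusted p = 0.0265), with an adjusted p between 0.0735 and 0.266 without each of 10 libraries. CYP24A1 rose further, by a difference of 0.796 (adjusted p = 0.0277; between 0.0735 and 0.268 without each of 11 libraries). CDH6 also rose further, by 0.62 (adjusted p = 0.0478; between 0.0831 and 0.346 without each of 11 libraries). GREB1 fell further, by −0.75 (adjusted p = 0.0478; between 0.0525 and 0.266 without any one of the 12 libraries). The untreated mean of GREB1 was 66.2 CPM with knockdown and 41.2 CPM with the control vector, and the treated means were 5.63 and 5.89 CPM. For all 4 genes the direction of the difference held under every alternative run.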

How the results depend on the processing

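The count of genes changed in knockdown cells stayed within 1.5 times of 6431 under every alternative, from 5165 without untreated library 2 to 8557 after the GC content correction. It was 6406 under RLE size factors, 5916 by DESeq2 and 7036 in the fit of only the 6 knockdown libraries. The count for the difference between the lines did not: 4 genes became 47 by DESeq2, 0 with no low-count filter, 14 with the filter of 1 CPM, 601 after the GC content correction and 62 without the 4 libraries farthest to low GC content, and leaving out 1 library gave 0 to 7. The cause was not tested. Libraries of the same number deviated from their group means with correlations of −0.60, −0.17 and 0.61 between untreated and treated knockdown groups. Between the control-vector groups the correlations were −0.87, 0.45 and −0.82. Of the 6 knockdown libraries 2 correlated best with their own number. These deviations also follow each library's trend on GC content, so they cannot decide whether the replicate numbers pair the samples. With the replicate block 5584 genes changed (5975 in the fit of the knockdown libraries alone) and 0 differed between the lines, and the replicate block with the GC content correction gave 8088 and 359.

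Of 140 named genes with a test 139 passed, and 124 of these kept their call and direction in all settings run. Over 2240 values 69 lost the call, 2 gained one and 0 reversed. Of 1536 list counts and medians 198 moved beyond the tolerance. Without the 4 libraries farthest to low GC content the lower members rose to 7 of the ATF4 list, 10 of fatty acid synthesis, 10 of the growth factor list, 9 of the NRF2 list, 6 of the BCL2 list, 6 of the lysosome list and 5 of the chaperone list. The precision differed with the level of a gene, and the part of sequencing depth in this was not tested: the median standard error was 0.23 at a mean log2 CPM of 0 to 2 and 0.07 over 8.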

Other observations

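Long noncoding RNAs were described by level because their response leaned upwards. Of the 135 tested whose log2 CPM averaged 3 or more, 82 passed by edgeR's quasi-likelihood test, 64 higher with fulvestrant and 18 lower. Of all 3356 tested genes with a mean log2 CPM of 2 to 4, 771 were higher and 674 lower. From 4 to 6, 994 of 4673 were higher and 1128 lower. MIR22HG, the host transcript of a microRNA, rose from 7.13, 8.62 and 7.504 CPM in untreated libraries 1, 2 and 3 to 18.97, 20.9 and 20.6 CPM (log2 fold change 1.38, adjusted p = 1.24e-06). The abundant nuclear RNAs MALAT1, from 305, 249 and 341 to 508, 508 and 484 CPM (0.74, adjusted p = 0.00105), and NEAT1, the scaffold of paraspeckles, from 459.9, 393 and 476 to 683, 733 and 658 CPM (0.64, adjusted p = 6.97e-05), rose as well. GAS5 and ZFAS1, which host small nucleolar RNAs, rose by 0.59 and 0.78, while the host gene SNHG15 had −0.76 (adjusted p = 2.46e-05), so genes of this kind moved in both directions. After the GC content correction the values were 0.69 for MALAT1, 0.57 for NEAT1, 0.54 for GAS5 and −0.67 for SNHG15. Since strand use in counting is not given, reads of antisense partners cannot be told apart.

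Several abundant surface and secreted genes outside the lists also changed. SERPINE2, which encodes a secreted protease inhibitor, rose from 169.5, 170.4 and 155 to 506, 547 and 502 CPM (1.65, adjusted p = 8.71e-08), and the integrin gene ITGB8 from 202, 191 and 189 to 582, 625 and 579 CPM (1.62, adjusted p = 8.59e-08). The complement gene C3 (1.004, adjusted p = 1.35e-05) and the tight junction gene CLDN1 (1.06, adjusted p = 1.11e-06) were higher. The receptor tyrosine kinase gene AXL fell from 193, 194 and 197 to 54.3, 45.2 and 55.2 CPM (−1.92, adjusted p = 5.8e-07) and the caveolae gene CAV1 from 423, 413 and 389.5 to 194, 210.0 and 188 CPM (−1.05, adjusted p = 1.67e-06), in contrast to the rises of EGFR and ERBB3. SULF2, which encodes a heparan sulfate sulfatase, had −1.65 (adjusted p = 7.23e-06). In each gene given with its libraries the treated and untreated libraries did not overlap, as in 9206 of all 15715 tested genes.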
